A study of Mus musculus with 8 samples.

Results

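C3 and 9 genes that lie near it on mouse chromosome 17 were described in 8 retinal RNA libraries, of which 4 carry the label wild type (WT) and 4 the label C3 KO. The 9 neighbours are Slc25a41, Dennd1c, Khsrp, Tnfsf9, Slc25a23, Crb3, Tubb4, Gtf2f1 and Dus3l. The 10 genes were picked by symbol out of 16109 in the deposited count table, and all 10 were present and passed the filter on low counts. They were picked with their difference between the labels already known. Their values are therefore given as a description, with no p-values. Calls of members are only counted, beside the share of all genes called, and support no other statement. Per the labels, all mice were C57BL/6 and the retinas were taken at postnatal day 5, when vessels spread over the inner retina, and the hyaloid vessels were taken off during dissection. The labels name the genotypes only as wild type and C3 KO. How the C3 gene was altered, whether the controls were littermates, and how many animals stand behind each library are not stated by the labels, so p-values measure the spread between these libraries only, and that spread may be partly technical.

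C3 is the hub of the complement cascade. Every activation route ends in an enzyme that cuts C3 into C3a, a small signal for leukocytes, and C3b, which binds covalently to nearby surfaces through a reactive thioester and marks them for uptake. In the developing visual system, C3 fragments are known as tags that microglia read through the receptor made from Itgam and Itgb2. The 9 neighbours are not complement genes. They share with C3 a gene-dense stretch of chromosome 17 and serve in mitochondria, transcription, RNA decay, polarity, the cytoskeleton and immune costimulation.

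Each library held between 16503564 and 19608824 counted reads. The targeted gene went against the label: C3 reads were more abundant in every library labelled C3 KO than in any library labelled WT. The sources used here do not show which part of C3 the reads cover. Exchanged labels and an altered allele that is still transcribed cannot be told apart from gene counts, so the direction of every difference given here rests on labels in doubt. Higher and lower here therefore mean under the C3 KO label against the WT label. Sex-linked RNA moved with the label as well. Xist, which coats the inactive X chromosome, ran from 1.48 to 2.65 CPM under the C3 KO label and from 295 to 2441 CPM under the WT label. The mean of 4 Y-linked genes was 74.8 to 88.2 CPM under the C3 KO label, and 0.448, 5.05, 75.8 and 3.71 CPM in WT replicates 1 to 4. WT replicate 3 thus carried Y-linked RNA at the level of the libraries labelled C3 KO, beside the lowest Xist among those labelled WT. CPM are counts scaled to a common library total with edgeR's scaled library sizes.

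On the GRCm38 annotation all 9 neighbours start on the same side of C3, beyond its 3′ end. In order of distance from the C3 start they are Tnfsf9 at 123 kb, Tubb4 (now Tubb4a) at 140.4 kb, Dennd1c at 149.6 kb, Slc25a23 at 168 kb, Crb3 at 169 kb, Slc25a41 at 186 kb, Khsrp at 197 kb, Gtf2f1 at 217 kb and Dus3l at 463 kb. The files were made on an older build, so these distances describe the order of genes only. From Gtf2f1 up to, but not including, C3, the count table held 9 placed genes, of which 8 are members and the remaining one is Gm11110, a long non-coding RNA. Tnfsf9, Crb3 and Dus3l lie on the plus strand and the other 7 on the minus strand. Crb3 overlaps the ends of both Dennd1c and Slc25a23 on the opposite strand. Tnfsf9 overlaps Gm11110, Khsrp overlaps Gm17949 and Slc25a23 overlaps Gm17168, each on the opposite strand. The sources do not say whether reads were counted by strand, so for these genes reads of the 2 strands cannot be told apart. On the same strand Dennd1c overlaps CT571247.2 and C3 overlaps Mir6978, where strand would not separate the reads.

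RefSeq's promoter table (GRCm38.p6) held windows for 8 of the 10 genes. The 250 bases before the annotated start are shown for C3, Dennd1c and Khsrp. Of all tested genes C3 rose most under the C3 KO label, where Dennd1c and Khsrp were both lower. Capitals mark matches, on either strand, to a C/EBP motif (TTGCNNAA), an NF-kB motif (GGGA, any 4 bases, then CC) or an Sp1 motif (GGGCGG). The C3 window is chr17:57228137-57228386, the Dennd1c window chr17:57078499-57078748 and the Khsrp window chr17:57031508-57031757, all on the minus strand.
C3: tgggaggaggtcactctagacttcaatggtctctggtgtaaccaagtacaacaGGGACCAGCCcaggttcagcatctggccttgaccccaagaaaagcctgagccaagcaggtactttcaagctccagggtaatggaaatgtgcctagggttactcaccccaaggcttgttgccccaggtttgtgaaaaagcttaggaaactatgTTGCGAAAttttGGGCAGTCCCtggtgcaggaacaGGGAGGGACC
Dennd1c: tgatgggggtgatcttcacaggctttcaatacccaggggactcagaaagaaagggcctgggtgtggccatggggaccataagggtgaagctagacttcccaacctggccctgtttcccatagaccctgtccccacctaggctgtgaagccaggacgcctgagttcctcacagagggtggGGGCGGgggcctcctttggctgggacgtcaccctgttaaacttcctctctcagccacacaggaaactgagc
Khsrp: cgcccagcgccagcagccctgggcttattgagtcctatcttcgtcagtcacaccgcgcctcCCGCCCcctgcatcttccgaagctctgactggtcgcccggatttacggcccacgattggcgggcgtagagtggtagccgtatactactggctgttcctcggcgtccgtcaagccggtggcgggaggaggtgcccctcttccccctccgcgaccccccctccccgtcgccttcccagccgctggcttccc

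The C3 window held 1 C/EBP match, 45 bases before the start, and 3 NF-kB matches, at 197, 33 and 10 bases. None of these matches overlapped another. Among all 32851 promoter windows of the same length, 9.56% held the C/EBP letters and 17.6% the NF-kB letters. C/EBP and NF-kB proteins are the factors classically named in the induction of C3 by inflammatory cytokines. Neither the Dennd1c nor the Khsrp window held either set of letters, and each held 1 Sp1 match, as 32.7% of all windows did. No other member's window held a C/EBP match, and Tubb4 was the only other one with NF-kB matches, 2 in number. A match is a run of letters, and binding was not measured here.

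Sequence sharing with other genes was low for most members. Of all 50-base words in the annotated transcripts of C3, Slc25a41, Crb3, Gtf2f1 and Dus3l, 0% occurred in transcripts of another gene on either strand. The share was 0.184% for Tubb4, whose 4 shared words all occur in Tubb2a, and 0.749% for Dennd1c. It was 1.89% for Khsrp and 4.13% for Slc25a23, and 11.5% for Tnfsf9, all with the opposite-strand Gm11110. Reads of the 2 members with the widest label difference, C3 and Slc25a41, thus have no long exact copy in another annotated transcript.

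C3 stood at 52, 45, 33 and 55 reads in WT replicates 1 to 4, and at 1718, 1585, 1550 and 1419 reads in C3 KO replicates 1 to 4. In CPM these were 2.67, 2.62, 1.75 and 3.32 against 87.5, 82.5, 87.5 and 80.6. The 2 sets of libraries were far apart, and within the C3 KO label the 4 libraries were close together. The spread (coefficient of variation) of C3 was 4.13% under the C3 KO label, where counting alone gives 2.53%, and 24.8% under the WT label, where counting gives 14.7%. The log2 fold change was 5.04 ± 0.10 (SE), the highest of all 15850 genes tested and rank 4 by absolute size. Against Gpr108, the next gene on the 5′ side, there were 41.3 to 74.7 C3 reads per 1000 Gpr108 reads under the WT label and 1726 to 1986 under the C3 KO label. This ratio is taken within each library and does not depend on library scaling.

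Slc25a41 and Slc25a23 are adjacent paralogues that encode carriers exchanging ATP-Mg for phosphate across the inner mitochondrial membrane. Slc25a23 has a calcium-binding domain, which Slc25a41 lacks. Slc25a41 had 5, 1, 4 and 2 reads in WT replicates 1 to 4 and 23, 27, 22 and 35 reads in C3 KO replicates 1 to 4. Every library labelled C3 KO was above every library labelled WT, at 1.45 ± 0.371 against 0.162 ± 0.0893 CPM (SD, n = 4). The log2 fold change was 3.07 ± 0.45 (SE), the third highest of all tested genes and rank 7 by absolute size. With counts this low, counting error alone gives a spread of 57.7% under the WT label. Slc25a23 was abundant and moved little, the other way, with 235, 222, 211 and 224 CPM under the WT label and 188, 209, 200 and 209 CPM under the C3 KO label. The groups did not overlap, but the gap between them was narrow (211 against 209 CPM), and the log2 fold change was −0.14 ± 0.05 (SE). Per 1000 Slc25a23 reads there were 0.262 to 1.09 Slc25a41 reads under the WT label and 6.19 to 9.52 under the C3 KO label.

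Dennd1c encodes connecdenn 3, an exchange factor that activates Rab35 in endosomal recycling. Its reads numbered 63, 41, 51 and 48 in WT replicates 1 to 4 and 10, 5, 7 and 16 in C3 KO replicates 1 to 4. In CPM the libraries were at 3.23, 2.39, 2.71 and 2.90 against 0.509, 0.260, 0.395 and 0.909, with no overlap. This was 5.41-fold lower, a log2 fold change of −2.44 ± 0.32 (SE). Tubb4, the next gene toward C3, encodes a beta tubulin of neurons and differed little, at 332, 263, 318 and 301 CPM against 308, 317, 352 and 348 CPM. Its groups overlapped, with a log2 fold change of 0.13 ± 0.06 (SE). Per 1000 Tubb4 reads there were 8.54 to 9.72 Dennd1c reads under the WT label and 0.822 to 2.61 under the C3 KO label.

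Khsrp encodes a KH-domain protein that binds AU-rich elements and promotes the decay of the messages that carry them. It was at 151, 147, 147 and 153 CPM under the WT label and at 104, 122, 99.5 and 108 CPM under the C3 KO label. All 4 libraries labelled C3 KO were below all 4 labelled WT, and the log2 fold change was −0.46 ± 0.06 (SE). With 8051 to 10774 reads per label, counting error was small, and the spread was 1.81% for the WT label and 8.82% for C3 KO. Gtf2f1, which lies next to Khsrp and encodes a subunit of the general transcription factor TFIIF, overlapped between labels, at 95.6 ± 7.69 and 92.1 ± 3.56 CPM (SD, n = 4). Its log2 fold change was −0.05 ± 0.06 (SE). Per 100 Gtf2f1 reads there were 145 to 177 Khsrp reads under the WT label and 109 to 131 under the C3 KO label.

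Tnfsf9 encodes the ligand of 4-1BB, a costimulatory receptor of activated T cells. It was at 13.4, 13.2, 14.0 and 14.5 CPM under the WT label and at 9.22, 10.6, 10.4 and 8.52 CPM under the C3 KO label. The groups did not overlap, and the log2 fold change was −0.50 ± 0.11 (SE). Gm11110, on the opposite strand and no member, was at 8.29 ± 0.832 and 7.08 ± 0.519 CPM (SD, n = 4), and its difference of −0.23 ± 0.13 (SE, log2) did not pass (edgeR adjusted p = 0.266). Per 100 Gm11110 reads there were 155 to 183 Tnfsf9 reads under the WT label and 121 to 150.0 under the C3 KO label. Crb3 encodes an apical polarity protein of the Crumbs complex. It had 15, 18, 9 and 14 reads under the WT label and 25, 26, 19 and 16 under the C3 KO label, which overlap once scaled to CPM (log2 fold change 0.56 ± 0.34, SE). For every 100 Dennd1c reads on the other strand there were 17.6 to 43.9 Crb3 reads under the WT label and 100 to 520 under the C3 KO label. Dennd1c itself was 5.41-fold lower, on few reads, so this ratio is no measure of Crb3 alone. Dus3l, a dihydrouridine synthase that modifies tRNA, was at 60.0 ± 2.59 and 69.3 ± 4.86 CPM (SD, n = 4), with overlapping groups and a log2 fold change of 0.21 ± 0.06 (SE).

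**Figure D1:**
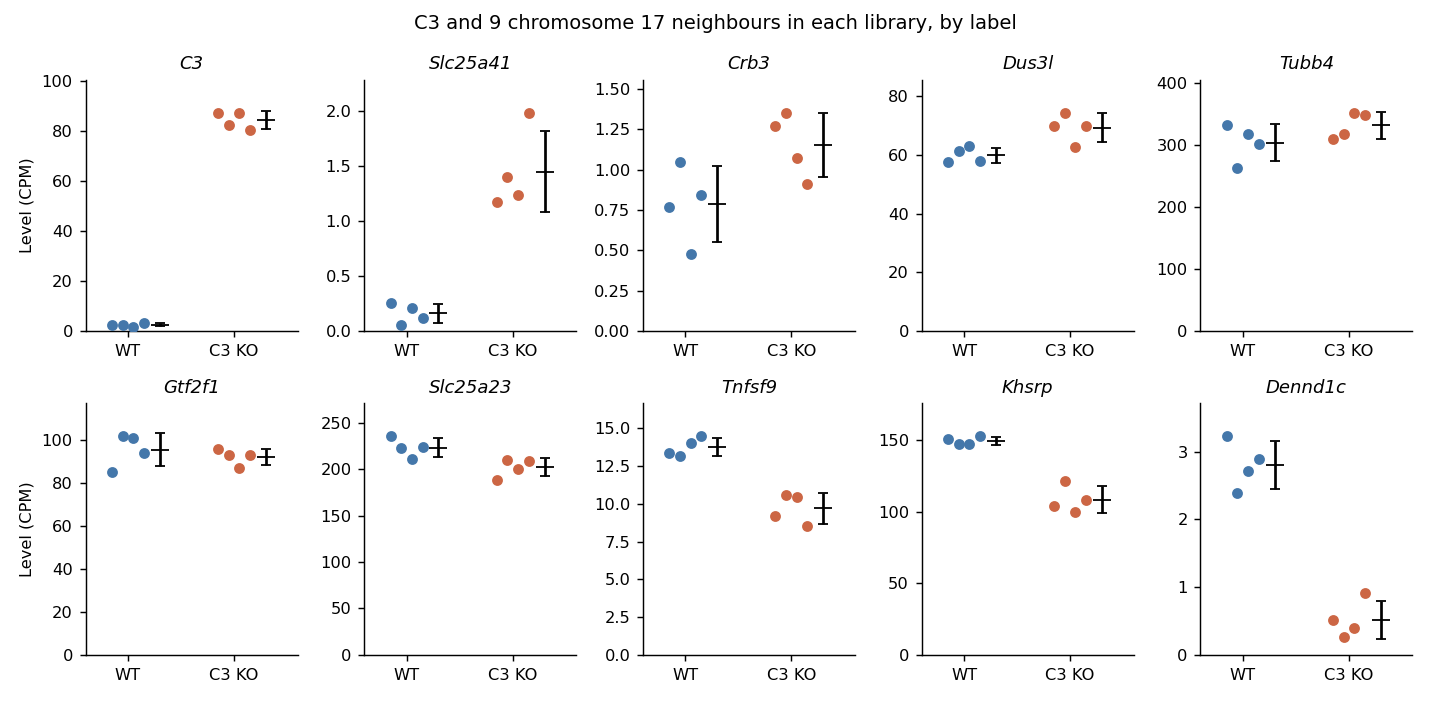
Level of C3 and its 9 neighbours in each library in CPM, on linear axes from 0; points are libraries (replicates 1 to 4 from left to right) and bars are mean ± SD of the 4 libraries of each label. C3 and Slc25a41 are higher and Dennd1c, Khsrp, Tnfsf9 and Slc25a23 lower in all 4 libraries labelled C3 KO, while the other 4 genes overlap.

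Counted together, 6 of the 10 genes had no overlap between the labels, 2 higher and 4 lower under the C3 KO label. Across all 15850 tested genes, the share without overlap was 17.4% (9.65% higher and 7.72% lower). By edgeR's quasi-likelihood test at an adjusted p below 0.05, 7 of the 10 were called, 3 higher and 4 lower, where 14.3% of all tested genes were called (8.33% higher and 5.98% lower). Since the same contrast chose the genes, nothing is read from these counts. The 9 neighbours had a median log2 fold change of −0.05 and a median absolute value of 0.46, against 0.0044 and 0.12 over all tested genes. They did not share a direction, and genes next to each other differed: Slc25a41 was higher between the lower Khsrp and Slc25a23, and Dennd1c was lower beside Tubb4. With 1 library left out at a time, Slc25a23 was not called without WT replicate 1, 2 or 4 or C3 KO replicate 1, 3 or 4, with log2 values from −0.17 to −0.11. Dus3l was not called without WT replicate 4 or C3 KO replicate 1, 2 or 4, with values from 0.17 to 0.20. Over all 17 alternatives Slc25a23 was not called in 11, among them upper quartile scaling, limma-voom, limma on log2 RPKM and the replicate block, and Dus3l was not called in 6, among them limma on log2 RPKM.

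**Figure D2:**
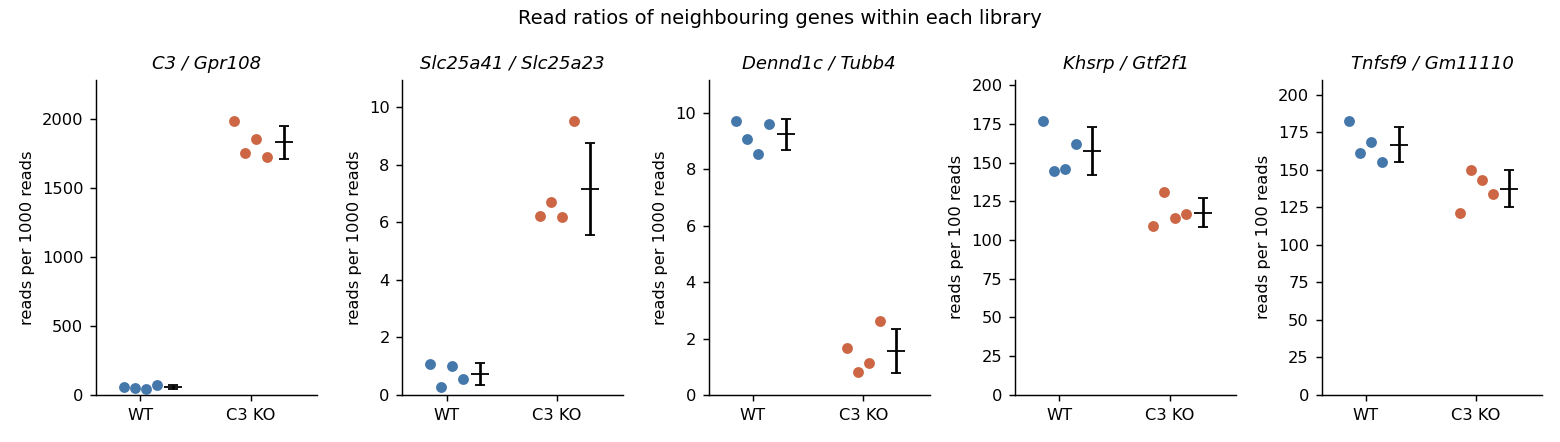
Reads of a member per 1000 or 100 reads of a neighbouring gene in the same library, for 5 pairs, on linear axes from 0; points are libraries and bars are mean ± SD of the 4 libraries of each label. C3 per 1000 Gpr108 reads is 41.3 to 74.7 under the WT label and 1726 to 1986 under the C3 KO label, and the other 4 ratios also do not overlap between labels.

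Levels of different genes were compared per length, on the deposited log2 RPKM scale. Under the WT label the order from high to low was Tubb4 (7.09), Gtf2f1 (5.79), Slc25a23 (5.4), Khsrp (5.23), Dus3l (4.71), Tnfsf9 (3.50), Dennd1c (0.21), Crb3 (−0.84), C3 (−0.96) and Slc25a41 (−2.36). The SD over 4 libraries was at most 0.15 for the 6 most abundant and 0.18 to 0.51 for the others, and Crb3 and C3 did not differ beyond their spread. Under the C3 KO label C3 moved from the ninth to the sixth place at 4.04 ± 0.06 (SD, n = 4), below Khsrp (4.76) and above Tnfsf9 (2.98). Dennd1c moved from the seventh place to the last at −2.11 ± 0.61 (SD, n = 4), and Slc25a41 to the eighth at 0.20 ± 0.32 (SD, n = 4). Dus3l (4.91) and Khsrp (4.76) overlapped there. C3 in the libraries labelled C3 KO was thus between Khsrp and Tnfsf9, and in those labelled WT near the bottom of the 10.

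The genes around the members were tested in the same fit. On the 5′ side, the 4 nearest measured genes are Gpr108, a membrane protein of the Golgi, Trip10, an F-BAR adaptor, Vav1, an exchange factor of blood cells, and Emr1 (now Adgre1), a surface antigen of macrophages. Their log2 fold changes were −0.02 ± 0.07, −0.18 ± 0.11, 0.19 ± 0.31 and 0.15 ± 0.14 (SE), and none passed (edgeR adjusted p = 0.862, 0.272, 0.74 and 0.521). The fifth, Cntnap5c, a neuronal adhesion protein, was at 1.5 ± 0.175 and 0.791 ± 0.307 CPM (SD, n = 4), and missed the threshold (edgeR adjusted p = 0.06). Among the alternatives it passed without C3 KO replicate 2 (adjusted p = 0.0207), by limma-voom (adjusted p = 0.0443) and with a filter of at least 1 CPM in 4 libraries (adjusted p = 0.04999).

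Within 0.5 Mb of C3, 11 genes other than the members were tested and 0 were called by edgeR, DESeq2 or limma-voom, with 1 at an unadjusted p below 0.05. Within 1 Mb, 1 of 28 was called, which is 3.57% against 14.3% of all tested genes. That gene, named after its value was seen, was Ndufa11, an accessory subunit of respiratory complex I, at 50.8 ± 5.72 and 59.1 ± 3.25 CPM (SD, n = 4, edgeR adjusted p = 0.0459). It lost the call without WT replicate 1 or 4 or C3 KO replicate 1, 3 or 4, with adjusted p-values up to 0.182. It also lost the call by limma on log2 RPKM (adjusted p = 0.101), without a filter (adjusted p = 0.052) and with Y-linked level as a covariate (adjusted p = 0.574). The count within 1 Mb was 0 without WT replicate 4 or C3 KO replicate 1, 3 or 4, and 4 without C3 KO replicate 2. The median absolute log2 fold change of these 28 genes was 0.12, as over all tested genes (0.12). The members, picked with their difference known, were left out of every window. That choice in part fixes these shares and this median, so nothing is read from them about the locus as a whole.

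Farther out, 7 of 52 genes within 2 Mb, 10 of 58 within 5 Mb and 14 of 105 within 10 Mb were called (13.5%, 17.2% and 13.3%). Only 9 tested genes lie on the 5′ side within 2 Mb, so that side is thinly covered. The smallest p among them was that of Pot1b, a telomere-binding protein 1.52 Mb from C3 on its 3′ side, also named after its value was seen. Pot1b had 32.7 ± 1.47 CPM under the WT label and fell to 20.2 ± 1.70 CPM under the other label (SD, n = 4, edgeR adjusted p = 4.89e-06). Of the 14 called within 10 Mb, 10 lie on the 3′ side of C3, among 78 tested there, and 4 on the 5′ side, among 27 tested.

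**Figure D3:**
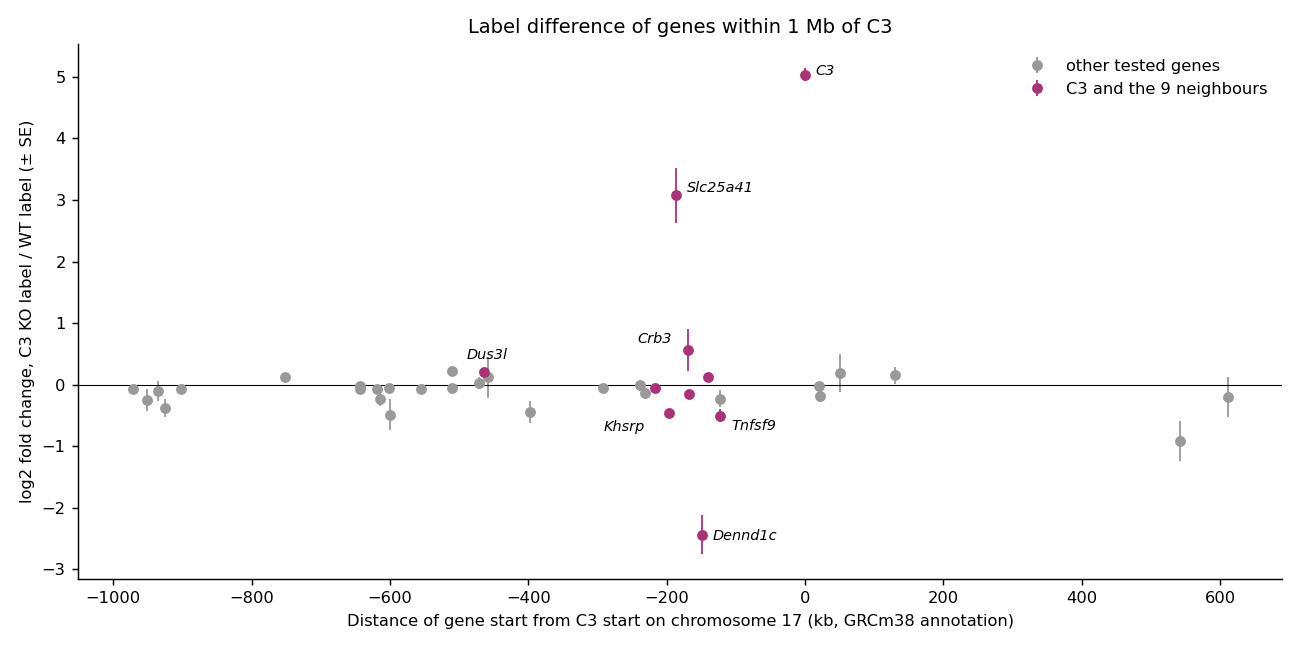
Log2 fold change (label C3 KO over label WT, ± SE from edgeR) of each tested gene within 1 Mb of C3, against the distance of its start from the C3 start in kb, negative on the 3′ side of C3. Coloured points are C3 and the 9 neighbours and grey points the 28 other tested genes, of which 1 was called.

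The genes whose profile was nearest to each strongly different member were sought over the 8 libraries. Likeness was the root mean square difference of log2 CPM after each gene was centred on its WT-labelled mean. A prior count of 2 was added before the log, which shrinks the differences of genes with few reads, such as Slc25a41 and Dennd1c. For C3 the nearest of 15018 genes was Rec8, a meiotic cohesin subunit, at 1.16, followed by the Y-linked Eif2s3y at 1.99 and 2410018L13Rik at 2.02. The nearest gene was thus more than 1 log2 unit from C3 on this measure. For Slc25a41 the nearest were Kcnj13, a potassium channel of pigment epithelium, at 0.38, the myosin Myo7a at 0.59 and the collagen Col8a1 at 0.60. For Dennd1c they were Serpina3n, a protease inhibitor of reactive glia, at 0.49, Cd1d2, a lipid-presenting molecule with a close copy in the genome, at 0.63, and Hddc3, a phosphohydrolase, at 0.68. Of these 9 genes none lies on chromosome 17. The measure includes the label difference by which the members were chosen, so it is a description.

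Around C3 in the cascade, 89 genes were listed in 7 groups by role, and 47 were tested. Of these 9 were called higher and 3 lower under the C3 KO label, with a median log2 fold change of 0.13 against 0.0044 over all tested genes. Over all tested genes 8.33% were called higher and 5.98% lower, and the counts of each group are to be read beside these shares. Among proteins that restrain C3b or the later steps, 9 of 12 log2 fold changes were positive, 6 were called higher and 1 was called lower, with a median of 0.34. Csmd2, a large CUB and sushi domain protein of neurons, rose 1.35-fold (adjusted p = 0.000192). Clu and Susd4 were also called higher, by 0.56 and 0.35 on the log2 scale. Susd4 lost its call with Y-linked level as a covariate, at a log2 value of 0.34 (edgeR adjusted p = 0.0745).

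Of the genes listed with the C3 convertases, 0 of 3 measured (C4a, C4b and Cfp) were called by edgeR, DESeq2 or limma-voom, and 1 had an unadjusted p below 0.05. C4a, at 1.39 ± 0.408 and 2.31 ± 0.523 CPM (SD, n = 4), passed only without C3 KO replicate 1 among the alternatives (adjusted p = 0.0461), and reads of C4a and its close copy C4b may be shared. C2, Cfb and Cfd have no row in the count table used here. Among receptors of C3 fragments 0 of 5 were called by the same 3 tools, with 0 at an unadjusted p below 0.05. C3ar1, the receptor of C3a, was at 2.54 ± 0.719 and 2.72 ± 0.445 CPM, and Itgam at 5.13 ± 1.36 and 6.56 ± 1.18 CPM (SD, n = 4). Itgam passed without WT replicate 1 (adjusted p = 0.034).

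Initiators of the cascade had 5 of 7 positive log2 fold changes, with 2 called higher and a median of 0.26. The called genes were C1qb, which lost its call in 11 of 17 alternatives (adjusted p from 0.0235 to 0.245), and Colec11, whose mean was below 1 CPM under either label and which lost its call with Y-linked level as a covariate (adjusted p = 0.618). The single measured terminal component, C8g, was not called by any of the 3 tools and had no unadjusted p below 0.05. Of 2 measured relatives that share the thioester fold, A2m, a broad protease trap, rose by 0.79 on the log2 scale, with means of 12.6 ± 1.99 and 21.7 ± 2.61 CPM (SD, n = 4) and an edgeR adjusted p = 6.3e-05, and Cd109 differed by 0.08 ± 0.16 (SE, log2) and did not pass.

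Regulators and markers of the acute phase, the setting in which C3 is classically induced, had 4 of 17 positive log2 fold changes, with 0 called higher, 2 called lower and a median of −0.06. With an unadjusted p below 0.05 there were 3 in either direction, and DESeq2 and limma-voom each called 2. Serpina3n, itself an acute phase gene, was 6.68-fold lower. Tnfaip3, an NF-kB target that feeds back on the pathway, fell by 0.59 on the log2 scale (edgeR adjusted p = 0.00226). Its means were 11.1 ± 0.416 and 7.37 ± 0.881 CPM (SD, n = 4). With Y-linked level as a covariate Tnfaip3 was at −0.58 on the log2 scale (edgeR adjusted p = 0.074). Rela and Nfkbia, a subunit and an inhibitor of NF-kB, differed by −0.18 ± 0.08 and −0.13 ± 0.07 (SE, log2) and did not pass (adjusted p = 0.158 and 0.182). None of the 17 tested genes was called in the direction of C3. Il1b, Il6, Tnf, Ifng, Lcn2, Hp, Saa3 and Orm1 of the same list have no row in the count table used here. The list thus lacks main inducers and markers of the acute phase.

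**Figure D4:**
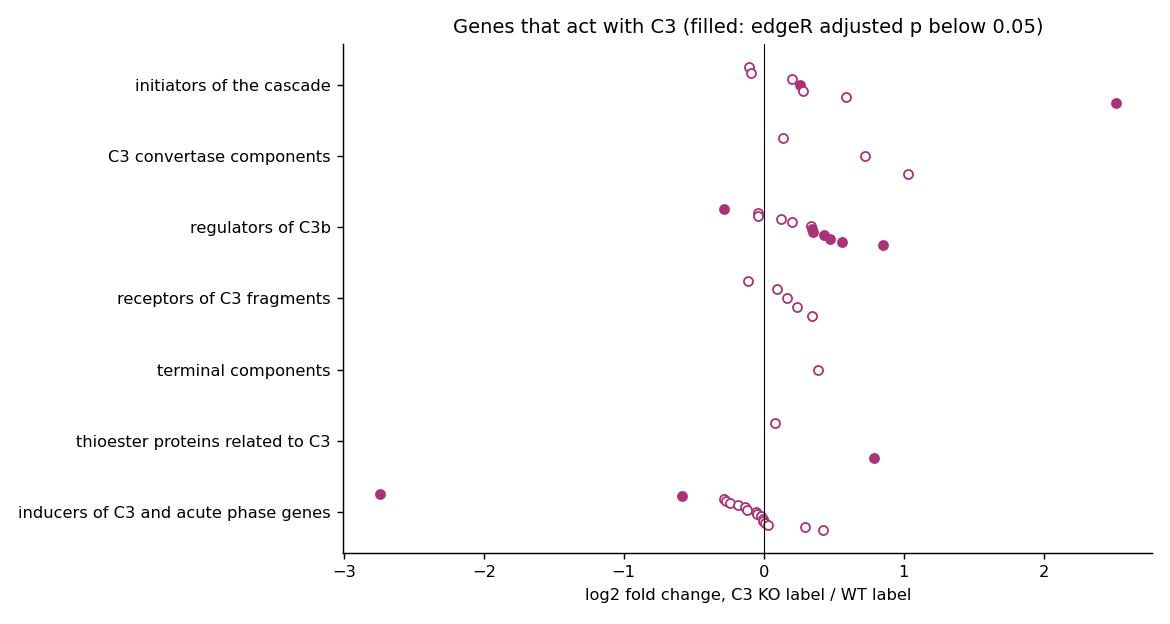
Log2 fold change (label C3 KO over label WT) of each tested gene in 7 groups by role around C3; filled points passed edgeR at an adjusted p below 0.05. Of 47 genes 9 are filled on the higher side and 3 on the lower, and the groups of convertase genes, receptors and terminal components hold no filled point.

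Markers of cells of the retina, or of cells that its dissection can carry along, differed between the labels in several lists, in both directions. Of all tested genes 8.33% were called higher and 5.98% lower, and the counts of each list are to be read beside these shares. In bulk tissue a change in the number of such cells and a change in RNA per cell cannot be told apart. Pigment epithelium markers summed to 297 to 333 CPM under the WT label and 422 to 452 CPM under the C3 KO label, with 6 of 10 called higher and a median log2 fold change of 1.14. The called genes were Ttr, Tyr, Dct, Mlana, Rgr and Pmel, at 2.16-fold to 2.80-fold. Rlbp1, which Mueller glia also express, made up 37.4% to 72.1% of the sum and did not pass, at a log2 fold change of −0.24. Without Rlbp1 the sum was 89.1 to 134 CPM under the WT label and 253 to 283 CPM under the C3 KO label. Fibroblast and sclera markers summed to 151 to 192 and 201 to 236 CPM, with 3 of 5 measured called higher, and Dcn, Lum and Dpt have no row in the table used here. Pdgfra made up 93.5% to 97.5% of that sum, and without it the sums were 4.25 to 7.86 and 9.88 to 15.3 CPM. Microglia markers summed to 110 to 144 and 145 to 176 CPM, with 8 of 8 positive and 2 called higher, and red blood cell markers to 28.5 to 51.2 and 18.1 to 23.2 CPM, with 5 of 5 called lower. Astrocyte markers, which share Pdgfra with the fibroblast list, summed to 205 to 264 and 268 to 343 CPM, with 4 of 6 positive and 2 called higher. Pdgfra made up 63.9% to 71.3% of the astrocyte sum. Without Pdgfra the astrocyte sums overlapped between labels, at 60.8 to 80.0 and 79.4 to 124 CPM. Endothelial markers overlapped, at 335 to 395 and 303 to 368 CPM, with 0 of 6 called by edgeR, DESeq2 or limma-voom and 0 at an unadjusted p below 0.05. Retinal neuron markers, which define the labelled tissue, summed to 4843 to 5384 and 4038 to 4837 CPM. The part of these cells in the C3 level was not tested.

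Across 17 alternative analyses the log2 values of the members kept their sign, which the choice of members in part fixes. C3 ran from 4.88 to 5.37 on the log2 scale, Dennd1c from −2.84 to −2.21 and Khsrp from −0.53 to −0.43. Slc25a41 ran from 2.55 to 3.38 over 16 alternatives, since DESeq2 gave it no adjusted p. With Y-linked level as a covariate C3 was at 5.37 and Dennd1c at −2.30, while Slc25a23 was at −0.05 and Dus3l at 0.14, and both lost their calls. Tnfsf9 also lost its call there, at −0.53 ± 0.16 (SE), against −0.50 ± 0.11 in the reported fit. The SE of C3 was 0.18 with this covariate and 0.10 in the reported fit. Crb3 moved from 0.56 to 0.93 and Gtf2f1 from −0.05 to −0.18 under that covariate. Slc25a41 was at 3.23. Sex-linked level moved with the label, and its part in these differences was not tested.

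**Figure D5:**
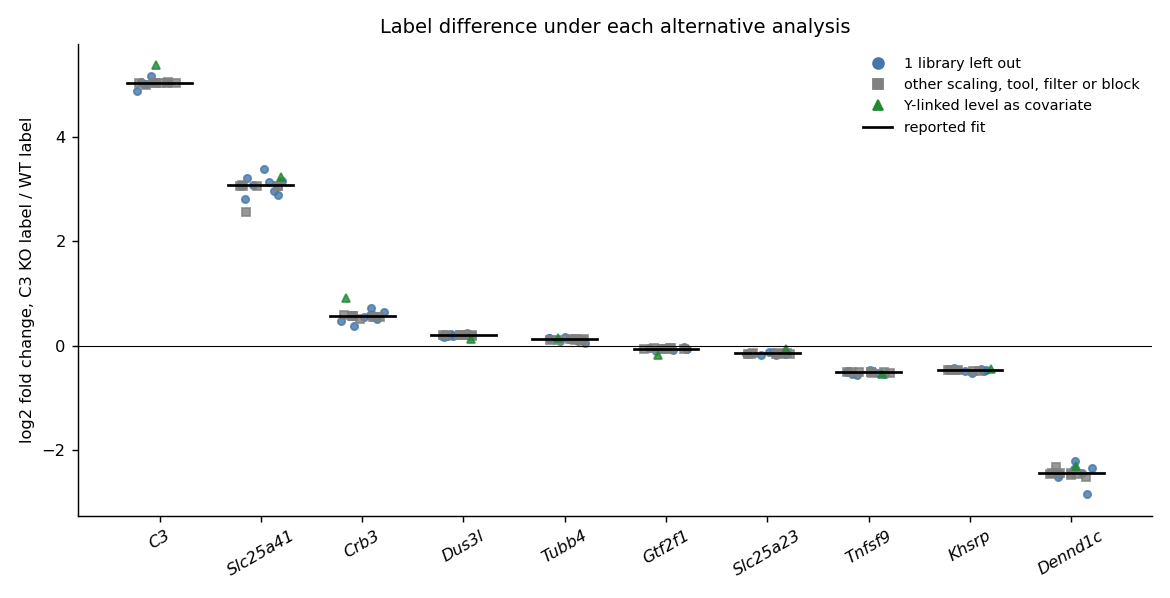
Log2 fold change (label C3 KO over label WT) of C3 and its 9 neighbours in the reported fit (black line) and under each alternative: 1 library left out (circles), other scaling, tool, filter or replicate block (squares) and Y-linked level as covariate (triangles). C3, Slc25a41 and Dennd1c keep values past 2 in either direction under every alternative shown.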

How the data were processed

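Poly(A) RNA of retina was sequenced from directional libraries, 4 libraries labelled WT and 4 labelled C3 KO. The deposited counts are whole reads per gene, not normalized. STAR and HTSeq (versions not given) and the builds mm9 and NCBIM37 are named in the submitters' processing notes. The authors also deposited log2 RPKM values, without stating what was added before the log. Counts were analysed with edgeR 4.0.16 in R 4.3.3 (filterByExpr, 15850 of 16109 genes, TMM, robust quasi-likelihood test of the 2 labels, Benjamini-Hochberg adjustment over all tested genes, called below 0.05). Each SE is the fold change (log2) over the root of F. The fit was tested on data simulated with the same spread beyond counting noise for every gene. That simulation does not cover genes with few reads and a wider spread, such as Slc25a41 and Dennd1c. All pairs of libraries within a label differed beyond counting noise (chi-square per degree of freedom at least 3.72).

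Distances, gene order and 50-base words came from GENCODE M21 (GRCm38), on which 15746 symbols were placed, 1342 of them through an older symbol. Alternatives were RLE and upper quartile scaling, DESeq2 1.42.0, limma-voom and limma 3.58.1 on log2 RPKM, other filters, each library left out, the replicate number as a block and Y-linked level as a covariate. The members and gene lists were chosen with earlier results of these data known. Named are the members, the 5 nearest measured genes on each side and called genes within 0.5 Mb, up to 4 genes per list with the smallest p, and for members past 1 on the log2 scale the 3 genes with the nearest profile. A gene that this rule names is not reported here, while counts and medians include it.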

Additional observations from a re-analysis of the deposited data

Results flagged for a closer look

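Of 96 groups of 4 libraries (48 named genes under 2 labels), 11 held a library whose gap to the nearest other passed Dixon's critical value relative to the group's range. Chance alone gives about 1 in 20 groups. None of the 10 members was among them.

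Near C3, Gpr108 was at 44.0 CPM in C3 KO replicate 1 against 46.7 to 47.1 in the others, and Trip10 at 12.1 CPM in WT replicate 3 against 13.8 to 14.1. Vav1 was at 2.77 CPM in WT replicate 1 against 1.03 to 1.28, and Cntnap5c at 1.249 CPM in C3 KO replicate 2 against 0.611 to 0.682.

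Among genes with a profile near that of a member, WT replicate 3 stood apart in Eif2s3y (81.3 CPM against 0.82 to 5.18) and in Myo7a (32.8 CPM against 11 to 13.7). In the cascade the same library stood apart in Colec11, at 0.532 CPM against at most 0.0582.

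C4a was at 1.53 CPM in C3 KO replicate 1 against 2.48 to 2.61, and Cfp, properdin, at 20.5 CPM in WT replicate 2 against 15.4 to 15.9. C3ar1 was at 3.39 CPM in C3 KO replicate 3 against 2.44 to 2.56, and Tnfaip3 at 8.69 CPM in C3 KO replicate 2 against 6.88 to 6.99.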

How the results depend on the processing

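Over 48 named genes and their alternatives, 744 of 807 values kept direction and side of the threshold, 44 lost a call and 11 gained one. The other 8 changed sign, all in genes that were not called and none in a member. With the Y-linked covariate Gpr108 was at 0.089 and Emr1 at −0.11 (log2). With 1 library left out Gpr108 ran from −0.077 to 0.021 (highest without WT replicate 2), C3ar1 from −0.086 to 0.22 (negative without WT replicate 2 and, at −0.033, C3 KO replicate 3), Cr2 from −0.17 to 0.40 (negative without WT replicate 3 and, at −0.11, C3 KO replicate 2) and Cd109 from −0.029 to 0.17 (lowest without C3 KO replicate 3). The count of all called genes, 2269, was 1469 by limma on log2 RPKM, 530 with Y-linked level as a covariate and 1305 to 2543 with 1 library left out, the lowest without C3 KO replicate 4. Called members, 7, numbered 4 with the Y-linked covariate and 5 to 7 with 1 library left out. Called non-members within 1 Mb, 1, numbered 2 by DESeq2, by limma-voom and with at least 1 CPM in 4 libraries, 0 by limma on log2 RPKM and without a filter, and 0 to 4 with 1 library left out. Other windows gave 0, 7, 10 and 14 (0.5, 2, 5 and 10 Mb). Called pathway genes, 12, numbered 6 with the Y-linked covariate and 8 to 13 with 1 library left out, and were 8 without WT replicate 2 or C3 KO replicate 3 or 4. The cause of these shifts was not tested.

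With the replicate block 2400 genes, 6 members, 1 gene near C3 and 11 pathway genes were called. Deviations of same-numbered libraries correlated at −0.0597, 0.0885, 0.0038 and −0.0561 over genes, so the numbers were not taken to pair the libraries. Reads of Slc25a41 and Dennd1c are few, and counting error limits their precision.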
